A study of Mus musculus with 4 samples.

Results

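Genes of the TGF-β pathway and target genes of the coactivator YAP were followed through the stromal cells of mouse gut. They comprised the ligand genes *Tgfb1*, *Tgfb2* and *Tgfb3*, the receptor gene *Tgfbr2*, and the genes *Tgfbi*, *Ctgf*, *Cyr61*, *Thbs1* and *Postn*, whose products are secreted into the matrix. These 9 genes were taken by name, and all 9 are among the 28692 gene rows of every library. Single-cell RNA-seq was performed on mesenchymal stromal cells (MSC) from the lamina propria, the connective tissue under the epithelium, of small intestine and colon, with 2 libraries per intestine (replicates 1 and 2). The mice were untreated C57BL6/Nrj females of 8 to 10 weeks, and cells of 3 mice were used per experiment, so that a library is not 1 animal. Cells had been sorted after removal of the outer muscle layer as live cells that lacked CD45, Ter119, CD31, BP3, EpCAM and L1CAM and carried integrin β1. Levels are given as CPM, the counts of unique molecular identifiers (UMIs) of a gene, scaled to a sum of 1000000 over all UMIs of 1 class in 1 library.

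TGF-β ligands are secreted in a latent form that is held in the matrix by latent TGF-β binding proteins (LTBP) and released by integrins and proteases. The active ligand binds TGFBR2, which recruits the type I receptor and thereby activates SMAD transcription factors, and genes of matrix proteins such as *Tgfbi* and *Postn* are known targets. YAP and its relative TAZ enter the nucleus when cells are stretched or lose contact, bind TEAD factors and induce *Ctgf* and *Cyr61*, which are also induced by TGF-β and by serum, while the product of *Thbs1* can release TGF-β from its latent form.

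Depth ranged from 14341443 to 52269372 UMIs per library, and 1815 to 14350 cells per library passed the filters. The median was 6950 and 8810 UMIs per cell in the replicate 1 libraries of small intestine and colon and 2734.5 and 3884 in those of replicate 2. The replicate numbers also differed in the Cell Ranger version of the file headers and in the barcode list, so that each such batch holds 1 library of each intestine. Cells of same-numbered libraries shared 8 and 69 barcodes, and other pairs of libraries shared 0 to 2. Clusters were named from marker genes as PDGFRαhi or CD81+ fibroblasts (FB), pericytes and smooth muscle cells (SMC). The remaining FB clusters were split into Fgfr2-high FB and Fgfr2-low FB by *Fgfr2* level, relative to the highest of them in the same intestine. Clusters under 2% of the cells that met no naming rule were in no class. Among these were 155 small intestinal cells with *Fgfr2* at 812 CPM, the highest level of all clusters. *Fgfr2* was at 323 and 318 CPM in small intestinal Fgfr2-high FB and at 110 to 196 CPM in the colonic clusters of that name, near the 87.1 to 136 CPM of small intestinal Fgfr2-low FB, so that the match of both classes between the intestines is uncertain. With all libraries clustered together, colonic Fgfr2-high FB numbered 249 and 1117 cells in place of 644 and 2414. The 9 genes and the lists below had no part in the clustering. SMC markers summed to at least 10770 CPM in each library of SMC and to at most 5129 CPM in the FB classes. Pericytes of small intestine and colon held 13609 and 13288 CPM of them in replicate 1, and 2242 and 5195 CPM in replicate 2. Summed CD81+ FB markers were at 2813 to 3826 CPM in CD81+ FB against 58.7 to 1414 CPM in the other FB classes. Those of Fgfr2+ FB were at 7786 and 6808 CPM in colonic Fgfr2-high FB, against 6763 and 5216 CPM in colonic PDGFRαhi FB. Markers of the removed endothelial cells summed to 0.646 to 37.7 CPM over the 4 FB classes and SMC, and those of immune cells to 1.27 to 30.5 CPM.

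For the ligands, the levels differed between the classes by gene. *Tgfb1*, the isoform best known from immune regulation and fibrosis (chromosome 7, 25687002 to 25705077, plus strand), was highest in PDGFRαhi FB among the 4 FB classes in each of the 4 libraries. It was at 51.1 and 45.3 CPM in PDGFRαhi FB of small intestine (replicates 1 and 2) and at 101 and 114 CPM in colon. The other FB classes and SMC held 22.1 to 40.1 CPM in small intestine and 32.6 to 54.8 CPM in colon. Within a library PDGFRαhi FB exceeded Fgfr2-high FB by 0.84 ± 0.50 (mean log2 difference ± SD over 4 libraries), CD81+ FB by 1.07 ± 0.23 and SMC by 1.04 ± 0.50, with the same sign in 4 of 4 libraries. The difference to pericytes, 0.53 ± 0.72, was smaller than its spread. The removed endothelial cells held more of this gene than any FB class, with 308 and 264 CPM in the replicate 1 libraries of small intestine and colon.

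*Tgfb2* (chromosome 1, 186622792 to 186705989, minus strand), which encodes a second ligand isoform, was lowest among the FB classes in PDGFRαhi FB. It was at 18.6 and 41.95 CPM in PDGFRαhi FB of small intestine and at 44.9 and 51.2 CPM in those of colon. Fgfr2-high FB held 148 and 205 CPM in small intestine and 106 and 127 CPM in colon, and Fgfr2-low FB held 155 and 235 CPM against 86.3 and 117 CPM. PDGFRαhi FB thus lay below Fgfr2-high FB (log2 difference -1.93 ± 0.82), CD81+ FB (-1.52 ± 0.53) and Fgfr2-low FB (-1.89 ± 0.996) in 4 of 4 libraries. Fgfr2-high minus Fgfr2-low FB was -0.13 ± 0.09 in small intestine and 0.20 ± 0.13 in colon (SD over 2 libraries). In colonic SMC it was lower still, at 11.7 and 10.8 CPM, against 33.0 and 81.1 CPM in small intestinal SMC.

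*Tgfb3* (chromosome 12, 86056745 to 86079041, minus strand), the gene of the third isoform, was higher in CD81+ FB than in any other FB class, with 101 and 114 CPM in small intestine and 61.3 and 57.9 CPM in colon. The next class in the order, Fgfr2-low FB, lay lower by a log2 difference of 0.54 ± 0.32 in 4 of 4 libraries. PDGFRαhi FB held 49.8 and 32.4 CPM in small intestine and 10.3 and 6.66 CPM in colon, and SMC held 42.4 and 42.2 CPM against 13.3 and 10.0 CPM. The low colonic values rest on 65 and 89 UMIs in PDGFRαhi FB and on 26 UMIs in each library of SMC. The groups did not overlap in either class.

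**Figure D1:**
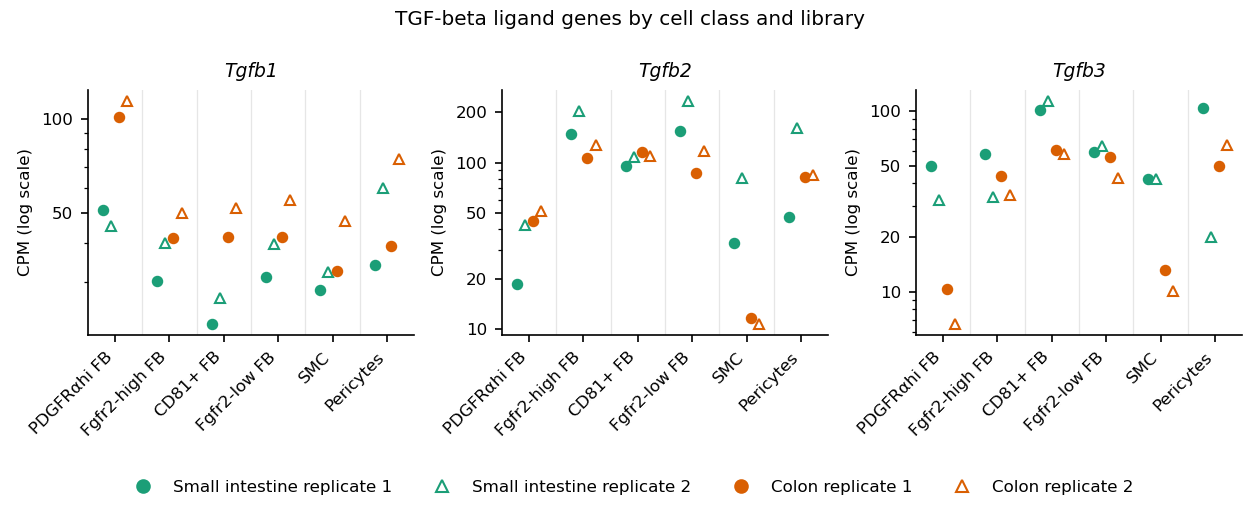
CPM (log scale) of the 3 ligand genes in 6 cell classes, with 1 symbol per library (circles replicate 1, triangles replicate 2; green small intestine, orange colon). *Tgfb1* is highest in colonic PDGFRαhi FB at 101 and 114 CPM, the class in which *Tgfb2* is low and *Tgfb3* falls to 10.3 and 6.66 CPM.

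To ask how location affects these genes, the UMI sums of each class in colon were tested against those in small intestine across all genes (n = 2 libraries each, edgeR quasi-likelihood test). Calls required a log2 fold change beyond 1.5 and p under 0.05 after Benjamini-Hochberg adjustment. None of the 3 ligand genes was called in any of the 5 classes tested by edgeR, where 0.926% to 1.86% of all genes were. At an unadjusted p under 0.05 *Tgfb1* passed in 2 classes, *Tgfb2* in 2 and *Tgfb3* in 3, where 10.3% to 13.2% of all genes passed per class. DESeq2 called *Tgfb2* in SMC (3.16% of all genes) and *Tgfb3* in PDGFRαhi FB (5.09%). The smallest adjusted p were for *Tgfb3* in SMC (log2 fold change -1.85, SE 0.35, adjusted p = 0.0650) and in PDGFRαhi FB (-2.14, SE 0.36, adjusted p = 0.0763), for *Tgfb2* in SMC (-2.36, SE 0.49, adjusted p = 0.0840) and for *Tgfb1* in PDGFRαhi FB (1.32, SE 0.26, adjusted p = 0.0998). With the replicate number as a block, *Tgfb3* was called in PDGFRαhi FB (-2.12, adjusted p = 2.27e-07) and SMC (-1.87, adjusted p = 0.000599), and *Tgfb2* in SMC (-2.39, adjusted p = 0.000119). Markers of Fgfr2+ FB summed to 11076 and 8598 CPM in small intestinal SMC and to 1281 and 1094 CPM in colonic SMC. Small intestinal Fgfr2-high FB held 12575 and 10138 CPM of them, and the other small intestinal FB classes 206 to 6544 CPM. Small intestinal SMC thus came near Fgfr2-high FB in these markers, and the part of this in the SMC differences was not tested. *Tgfb1* with the block had a log2 fold change of 1.34 (adjusted p = 6.29e-06), under the limit of 1.5.

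*Tgfbr2* (chromosome 9, 116084293 to 116175360, minus strand), the type II receptor through which the 3 ligands act, was the most even of the 9 genes over the 4 FB classes and SMC, by the ratio of its highest to its lowest level. It ranged from 141 to 475 CPM over the 4 FB classes and SMC and from 70.6 to 180 CPM in pericytes, which were lowest in 4 of 4 libraries. The order of the FB classes differed by intestine. In small intestine Fgfr2-high FB exceeded Fgfr2-low FB by 0.20 ± 0.11 and these exceeded PDGFRαhi FB by 0.33 ± 0.07, whereas in colon CD81+ FB came first, 0.29 ± 0.28 above PDGFRαhi FB (log2, SD over 2 libraries). Small intestinal Fgfr2-high FB held 475 and 385 CPM and colonic ones 243 and 185 CPM (log2 fold change -0.86, SE 0.26, adjusted p = 0.280). In CD81+ FB the direction was the other way, with 216 and 202 CPM in small intestine and 273 and 309 CPM in colon (0.34, SE 0.27, adjusted p = 0.822). It was called in no class by edgeR, with or without the block, nor by DESeq2. In 3 classes it had an unadjusted p under 0.05, where 10.3% to 13.2% of all genes passed per class.

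*Postn* (chromosome 3, 54361109 to 54391037, plus strand) encodes periostin, a matricellular protein that binds integrins and cross-links collagen. It had the largest difference between the intestines of the 9 genes in 3 of the 4 FB classes. Small intestinal PDGFRαhi FB held 35.2 and 34.0 CPM and colonic PDGFRαhi FB 2965 and 1211 CPM. Fgfr2-high FB held 15.2 and 56.2 CPM against 4683 and 2037 CPM, and Fgfr2-low FB 202 and 261 CPM against 4028 and 1992 CPM. The groups did not overlap in any of these 3 classes. In CD81+ FB the 4 libraries overlapped, with 587 and 729 CPM in small intestine and 783 and 704 CPM in colon. SMC held 1366 and 657 CPM against 4762 and 2443 CPM. The order of the classes therefore differed by intestine: PDGFRαhi FB minus CD81+ FB gave a log2 difference of -4.20 ± 0.25 in small intestine and 1.35 ± 0.80 in colon (SD over 2 libraries).

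In PDGFRαhi FB *Postn* was the 1 of 9 genes called (log2 fold change 6.03, SE 0.56, adjusted p = 0.0260), where 1.42% of all 11517 genes tested were called. It was also the 1 of 9 called in Fgfr2-high FB (6.60, SE 0.82, adjusted p = 0.0414), where 1.18% of genes were called, and 1 of 2 in Fgfr2-low FB (3.57, SE 0.43, adjusted p = 0.0403), where 1.78% were called. In CD81+ FB the log2 fold change was 0.04 (SE 0.27, adjusted p = 0.992). In SMC none of the 9 was called by edgeR, against 1.86% of genes, while 5 of 9 had an unadjusted p under 0.05 (13.2% of all genes) and DESeq2 called 2 (3.16%). There *Postn* had a log2 fold change of 1.84 (SE 0.48, adjusted p = 0.149), which passed with the block (1.85, adjusted p = 6.27e-08). The part of the Fgfr2+ FB markers in this SMC difference was not tested. Within the batches the log2 difference was 6.36 in replicate 1 and 5.11 in replicate 2 in PDGFRαhi FB, and 8.18 and 5.15 in Fgfr2-high FB. The call in Fgfr2-high FB was lost with the replicate block (6.30, SE 1.32, adjusted p = 0.2503) and without a filter on low counts (adjusted p = 0.0679). In PDGFRαhi FB it was lost without small intestine replicate 1 (adjusted p = 0.0888) or 2 (adjusted p = 0.144), and in Fgfr2-high FB likewise (adjusted p = 0.104 and 0.267). In Fgfr2-low FB it was lost without small intestine replicate 1 (adjusted p = 0.185) or 2 (adjusted p = 0.209) and without colon replicate 2 (adjusted p = 0.0538), and also with all 4 libraries clustered together (adjusted p = 0.0596) or cells gated 1 by 1 (adjusted p = 0.0602). In each of these fits the log2 fold change stayed at 3.39 or above.

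The difference was also seen in the share of cells with a *Postn* UMI. Among PDGFRαhi FB this share was 2.89% of 173 and 5.06% of 1345 cells in small intestine and 91.8% of 586 and 84.2% of 3344 cells in colon. With every cell thinned to 1000 UMIs, the shares were 1.73% and 1.86% against 72.5% and 59.9%, so that the order did not depend on depth per cell. In CD81+ FB the thinned share was 43.2% and 47.7% in small intestine, close to the 41.2% and 44.0% of colonic cells. The removed endothelial cells, which should lack the gene, gave 2.77% of 361 cells in small intestine replicate 1 (median 4407 UMIs) and 2.53% of 237 cells in colon replicate 1 (median 5044 UMIs), or 0.831% and 0.422% after thinning. Small intestinal PDGFRαhi FB of replicate 1 (median 9209 UMIs) were thus near the level of endothelial cells of that replicate. In replicate 2 only 8 and 24 endothelial cells were found in small intestine and colon, and 25.0% and 20.8% of them had a *Postn* UMI. Those shares rest on 3 and 11 UMIs and lie above the 5.06% of small intestinal PDGFRαhi FB. A colonic cluster removed as plasma cells (22 and 17 cells in replicates 1 and 2) held 2740 and 1022 CPM of *Postn*. It had *Col1a1* at 1806 CPM and *Dcn* at 5260 CPM, where the small intestinal plasma cell cluster had 48.3 and 284 CPM. Whether FB RNA or FB were caught in it was not tested.

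RefSeq (GRCm38.p6) gives 2 start sites for *Postn*, and the 250 bases before the one that adjoins the annotated gene are shown, with those before *Cyr61*, which RefSeq lists as *Ccn1*. *Postn* is shown as the gene with the largest difference between the intestines and *Cyr61* as a known target of TEAD factors, and capitals mark a TEAD motif. The *Postn* window is chr3:54360857-54361106, plus strand, and the *Cyr61* window is chr3:145649986-145650235, minus strand.
Postn: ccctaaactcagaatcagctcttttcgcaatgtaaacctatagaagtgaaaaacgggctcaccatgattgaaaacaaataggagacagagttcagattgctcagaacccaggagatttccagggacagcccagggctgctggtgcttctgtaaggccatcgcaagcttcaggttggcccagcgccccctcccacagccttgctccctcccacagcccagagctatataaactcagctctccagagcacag
Cyr61: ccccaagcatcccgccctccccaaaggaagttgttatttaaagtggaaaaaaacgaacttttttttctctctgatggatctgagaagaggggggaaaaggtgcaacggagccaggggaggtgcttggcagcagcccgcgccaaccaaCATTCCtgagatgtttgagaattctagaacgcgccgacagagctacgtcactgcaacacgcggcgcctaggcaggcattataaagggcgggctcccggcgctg
The TEAD motif GGAATG, searched on both strands, starts 103 bases before the start site of *Cyr61*, on the other strand, and is not in the *Postn* window. It is in 12.6% of 32851 promoter windows of this length. The SMAD motif CAGACA, in 17.1% of all windows, the longer SMAD motif GTCTAGAC (0.167%) and the CArG box of serum response factor (1.47%) are in neither. Of the 6 genes with an entry, *Tgfb2* has CAGACA, 204 bases before its start.

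*Tgfbi* (chromosome 13, 56609523 to 56639562, plus strand), named for its induction by TGF-β, encodes a matrix protein that binds collagen and integrins. It was highest in SMC and PDGFRαhi FB. PDGFRαhi FB held 463 and 355 CPM in small intestine and 1432 and 860 CPM in colon, and SMC 744 and 470 CPM against 1114 and 670 CPM. The order of these 2 classes turned by intestine: PDGFRαhi FB minus SMC was -0.54 ± 0.20 in small intestine and 0.360 ± 0.0013 in colon (log2, SD over 2 libraries). PDGFRαhi FB exceeded Fgfr2-high FB by 0.99 ± 0.78 log2 units in 4 of 4. In Fgfr2-low FB the direction of the colon difference was opposite, with 248 and 208 CPM in small intestine and 71.0 and 44.0 CPM in colon. Neither difference was called by edgeR (PDGFRαhi FB 1.62, SE 0.35, adjusted p = 0.115; Fgfr2-low FB -2.12, SE 0.30, adjusted p = 0.0531). Both were called by DESeq2 and without a filter on low counts, and with the block both passed (1.60, adjusted p = 3.74e-05, and -2.14, adjusted p = 1.52e-08). With all 4 libraries clustered together or cells gated 1 by 1, the Fgfr2-low value moved by over 1.5 times, to between -0.90 and -2.14 over the alternatives.

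*Ctgf* (chromosome 10, 24595442 to 24598683, plus strand), a direct YAP and TEAD target whose product is also called CCN2, was the other gene called. Small intestinal CD81+ FB held 12.4 and 16.0 CPM and colonic CD81+ FB 249 and 179 CPM. Fgfr2-low FB held 78.8 and 61.9 CPM against 633 and 639 CPM, the highest values of this gene. The colonic libraries lay above the small intestinal ones in both classes, without overlap. SMC overlapped, with 122 and 157 CPM against 139 and 172 CPM. Fgfr2-high FB held 159 and 99.2 CPM against 294 and 278 CPM, and PDGFRαhi FB 38.5 and 82.2 CPM against 91.3 and 116 CPM. CD81+ FB were thus the lowest class in both small intestinal libraries, 1.92 ± 0.52 log2 units below PDGFRαhi FB, and PDGFRαhi FB the lowest in both colonic libraries.

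The log2 fold change of *Ctgf* was 3.76 in CD81+ FB (SE 0.31, adjusted p = 0.0249), where it was the 1 of 9 genes called against 0.926% of genes, and 3.07 in Fgfr2-low FB (SE 0.28, adjusted p = 0.0271). It was also called with the block (3.69, adjusted p = 3.71e-05, and 3.08, adjusted p = 1.19e-08) and under the other 7 alternatives that kept all libraries, in both classes. Within replicates 1 and 2 the log2 difference was 4.22 and 3.41 in CD81+ FB and 2.99 and 3.35 in Fgfr2-low FB. In CD81+ FB the call was lost without colon replicate 1 (adjusted p = 0.0815) or 2 (adjusted p = 0.0737). In Fgfr2-low FB it was lost without small intestine replicate 1 (adjusted p = 0.115) or 2 (adjusted p = 0.183) and without colon replicate 2 (adjusted p = 0.0645). The match of Fgfr2-low FB between the intestines is uncertain, since their summed Fgfr2+ FB markers came to 6544 and 5287 CPM in small intestine against 1831 and 1364 CPM in colon. Thinned to 1000 UMIs, 0.997% and 1.55% of CD81+ FB had a *Ctgf* UMI in small intestine and 15.6% and 13.4% in colon, where the unthinned shares were 6.98% and 4.09% against 47.2% and 31.3%. Endothelial cells of replicate 1 gave 2.49% and 3.80% after thinning, above the share in small intestinal CD81+ FB and below that in colon. In replicate 2, with 8 and 24 endothelial cells, the thinned shares were 12.5% and 0.0%.

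*Cyr61* (chromosome 3, 145646976 to 145649981, minus strand) encodes CCN1, which is related to the product of *Ctgf* and is induced within minutes of stimulation. Its levels depended on the library as much as on the class. In colon, replicate 1 exceeded replicate 2 in all 6 classes, for instance with 1654 against 604 CPM in PDGFRαhi FB and 2137 against 827 CPM in Fgfr2-high FB. Both of these classes overlapped between the intestines, with 666 and 501 CPM in small intestinal PDGFRαhi FB. CD81+ FB did not overlap, with 457 and 414 CPM in small intestine and 2582 and 1189 CPM in colon. This difference was not called by edgeR (log2 fold change 1.97, SE 0.43, adjusted p = 0.141), and was called by DESeq2, without a filter on low counts and with the block (1.87, adjusted p = 0.00207). Over the 4 libraries, neighbours in the order of the 4 FB classes and SMC did not differ beyond their spread.

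*Thbs1* (chromosome 2, 118111876 to 118127133, plus strand), the gene of thrombospondin 1, was highest in CD81+ FB in 3 of 4 libraries. CD81+ FB held 368 and 519 CPM in small intestine and 841 and 1083 CPM in colon, without overlap (0.99, SE 0.31, adjusted p = 0.311). In Fgfr2-low FB the small intestine was higher, with 355 and 603 CPM against 89.9 and 239 CPM (-1.61, SE 0.60, adjusted p = 0.370). SMC also held more in small intestine, with 205 and 248 CPM against 49.0 and 105 CPM (-1.55, SE 0.41, adjusted p = 0.158). Both latter differences passed with the block (-1.75, adjusted p = 0.000687, and -1.57, adjusted p = 2.52e-05). For SMC, the part of the Fgfr2+ FB markers in the difference was not tested. In Fgfr2-low FB the value moved to -0.50 at the smallest over the alternatives that kept all libraries.

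**Figure D2:**
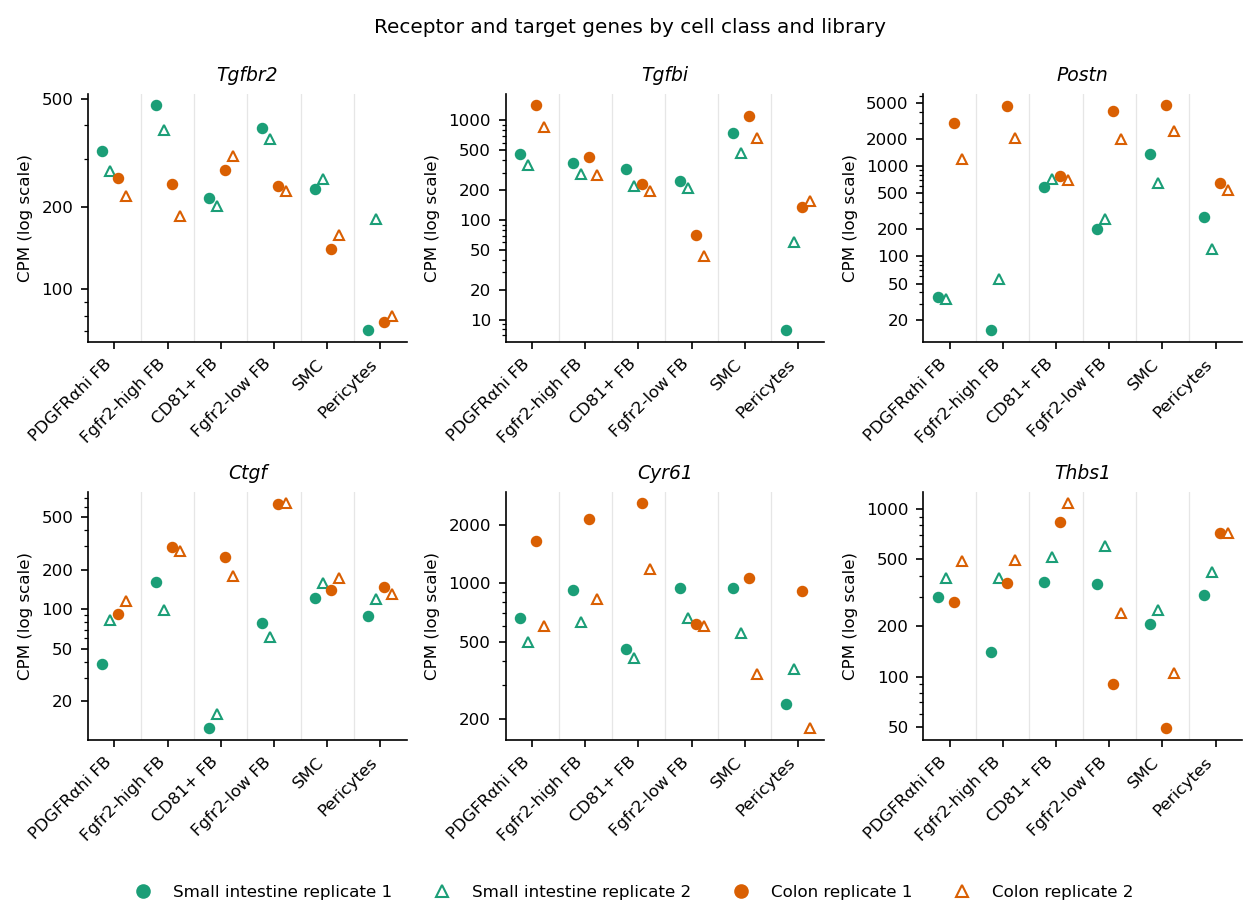
CPM (log scale) of the receptor gene and the 5 target genes in 6 cell classes, with 1 symbol per library (circles replicate 1, triangles replicate 2; green small intestine, orange colon). *Postn* separates the intestines in PDGFRαhi, Fgfr2-high and Fgfr2-low FB and not in CD81+ FB, while *Ctgf* separates them in CD81+ FB (12.4 and 16.0 against 249 and 179 CPM).

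Immediate early genes, which are induced when cells are dissociated or stimulated, moved along with some of these values. The 16 listed genes (such as *Fos*, *Jun* and *Socs3*) summed to 18721 and 25925 CPM in small intestinal PDGFRαhi FB and to 50412 and 53500 CPM in colonic ones. In CD81+ FB they summed to 34794 and 37900 CPM against 67111 and 61693 CPM, and in Fgfr2-low FB to 33947 and 40326 CPM against 24324 and 55869 CPM. The list had a median log2 fold change of 1.41 in Fgfr2-high FB and 1.19 in PDGFRαhi FB, with 0.65 for CD81+ FB and 0.26 for Fgfr2-low FB, beside -0.01 to 0.03 over all genes tested in these classes. In SMC it was -0.15. The part of this shift in the values of *Cyr61*, *Ctgf* and *Thbs1* was not tested. Pearson's r with the summed immediate early genes was taken over the 24 combinations of class and library, centred within libraries. It was 0.71 for *Thbs1*, 0.45 for *Tgfb2*, 0.32 for *Tgfb3*, 0.23 for *Cyr61*, -0.16 for *Ctgf* and -0.29 to 0.17 for the other genes. These r describe profiles that share their libraries. Centring removes the mean level of each library, so they do not address the shift between the intestines.

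With the replicate number as a block more genes were called over all genes in each of the 5 classes. Of the 9, the block gave 3 calls in PDGFRαhi FB (8.16% of all genes), 0 in Fgfr2-high FB (6.20%), 2 in CD81+ FB (4.31%), 4 in Fgfr2-low FB (6.40%) and 4 in SMC (6.30%). In Fgfr2-high FB, where edgeR with the block called none of the 9, *Postn* had the highest fold change of the 9.

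**Figure D3:**
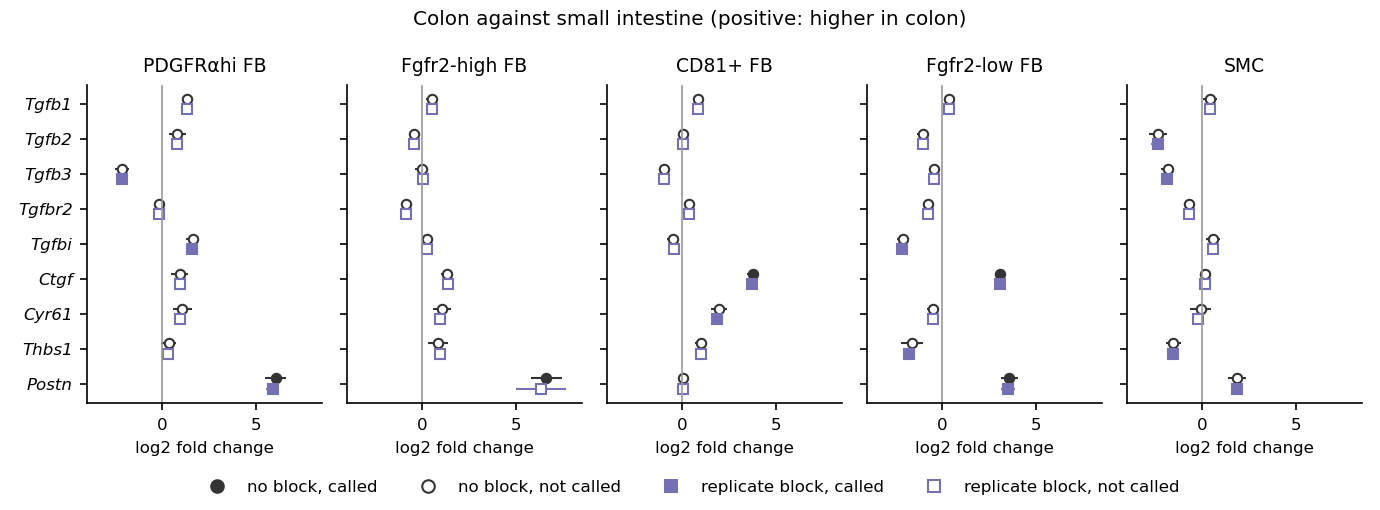
Log2 fold change of colon against small intestine for the 9 genes in 5 cell classes (2 libraries per intestine), without a block (circles) and with the replicate number as a block (squares). Bars are standard errors, hidden where shorter than the symbol, and filled symbols were called. *Postn* lies at 6.03, 6.60 and 3.57 in PDGFRαhi, Fgfr2-high and Fgfr2-low FB and at 0.04 in CD81+ FB.

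Whether the colon difference itself differed between the classes was tested by an interaction of class and tissue (library blocked), for PDGFRαhi FB against each other FB class (adjusted p under 0.05, no limit on size). Against Fgfr2-high FB 5 of 9 genes passed, where 10.7% of all genes did, against CD81+ FB 6 of 9 (13.0% of genes), and against Fgfr2-low FB 7 of 9 (14.0%). *Tgfb3* and *Tgfbi* passed in all 3 comparisons. Against Fgfr2-high FB *Tgfbi* fell from 1.38 to 0.75 with joint clustering and to 0.32 with cells gated 1 by 1, where it no longer passed (adjusted p = 0.319). Against CD81+ FB *Tgfb3* no longer passed by DESeq2 (adjusted p = 0.0912) or without colon replicate 2 (adjusted p = 0.182). The colon difference of *Tgfb3* was lower in PDGFRαhi FB by 2.10 log2 units than in Fgfr2-high FB (SE 0.23, adjusted p = 1.09e-09; -1.24 with joint clustering and -1.33 with gating), and that of *Tgfbi* was higher by 3.73 than in Fgfr2-low FB (SE 0.17, adjusted p = 4.25e-14). That of *Postn* was higher by 5.88 than in CD81+ FB (SE 0.39, adjusted p = 0.000134), and did not pass against Fgfr2-high FB (-0.36, SE 0.41, adjusted p = 0.758). *Ctgf* had a colon difference 2.89 lower in PDGFRαhi FB than in CD81+ FB (term -2.89, SE 0.37, adjusted p = 0.00141, and 0.0514 with gating). Against Fgfr2-low FB it missed the threshold by edgeR (-2.21, SE 0.61, adjusted p = 0.188) and passed by DESeq2 (adjusted p = 0.000138), without a low-count filter (adjusted p = 5.65e-11) and with gating (adjusted p = 0.0374). It also passed there without small intestine replicate 1 or 2 or colon replicate 1 (log2 terms of -2.77, -1.32 and -2.09). *Tgfb1* and *Tgfb2* passed against Fgfr2-high FB (0.95, adjusted p = 0.000273, and 1.22, adjusted p = 1.37e-06) and Fgfr2-low FB (1.01, adjusted p = 0.000476, and 1.83, adjusted p = 1.45e-07), and neither passed against CD81+ FB (0.54, adjusted p = 0.138, and 0.75, adjusted p = 0.0997). The *Tgfb1* term was lost without small intestine replicate 2 in both (adjusted p = 0.614 and 0.111), and against Fgfr2-high FB also by DESeq2 (adjusted p = 0.0930) and with gating (0.42, adjusted p = 0.374). That of *Tgfb2* against Fgfr2-low FB was lost with gating (adjusted p = 0.265). *Thbs1* passed against Fgfr2-low FB at 2.03, and moved to 0.75 with joint clustering, 0.70 with gating (adjusted p = 0.0585) and 1.16 without small intestinal cluster 0, and its term against CD81+ FB (-0.72) was lost by DESeq2 and without colon replicate 1 (adjusted p = 0.1245 and 0.240). *Tgfbr2* was lost against Fgfr2-high FB without colon replicate 2 (adjusted p = 0.252) and against Fgfr2-low FB without small intestine replicate 1 (adjusted p = 0.0607) or 2 (adjusted p = 0.142).

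Colonic PDGFRαhi FB formed 2 clusters, and the 9 genes were spread unequally over them. Cluster 4 (207 and 1445 cells) had *Il1rl1* at 387 and 201 CPM and *Nrg1* at 618 and 809 CPM, where cluster 2 (379 and 1899 cells) held 9.35 and 3.07 CPM and 47.6 and 72.6 CPM. *Acta2*, a gene of contractile cells, was at 5046 and 2662 CPM in cluster 2 and at 891 and 502 CPM in cluster 4. *Tgfb1* was at 169 and 163 CPM in cluster 4 and at 54.8 and 63.3 CPM in cluster 2, a ratio of 3.05 and 2.55. Cluster 2 was close to small intestinal PDGFRαhi FB (51.1 and 45.3 CPM). *Tgfb2* went the other way, with 18.3 and 25.5 CPM in cluster 4 and 63.1 and 78.3 CPM in cluster 2. *Tgfbi* was at 2109 and 1152 CPM in cluster 4 and at 968 and 552 CPM in cluster 2, and *Thbs1* at 386 and 718 CPM against 206 and 249 CPM. *Ctgf* was lower in cluster 4, with 56.2 and 60.6 CPM against 115 and 174 CPM. *Postn* was present in both clusters, at 4385 and 1451 CPM in cluster 4 and 1993 and 959 CPM in cluster 2. *Tgfbr2* had a ratio of 1.01 and 0.896, and *Tgfb3* was at 5.11 to 10.96 CPM in both. Immediate early genes were 1.76 and 1.47 times as high in cluster 4, and their part was not tested. Clusters of the same cells carry no test.

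**Figure D4:**
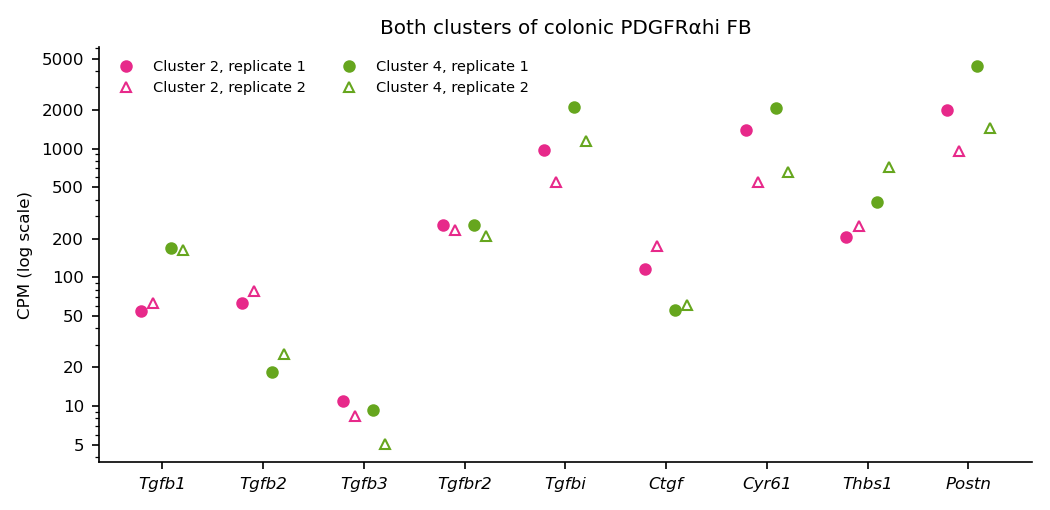
CPM (log scale) of the 9 genes in both clusters of colonic PDGFRαhi FB, with 1 symbol per library (circles replicate 1, triangles replicate 2; pink cluster 2, green cluster 4). *Tgfb1*, *Tgfbi* and *Thbs1* are higher and *Tgfb2* and *Ctgf* lower in cluster 4 in both libraries, and *Tgfbr2* is level.

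Further splits were seen in 3 classes. Among colonic Fgfr2-high FB, cluster 6 (159 and 698 cells) held 17.0 and 9.28 CPM of *Tgfb3* against 54.6 and 46.4 CPM in cluster 3, and 789 and 501 CPM of *Tgfbi* against 287 and 178 CPM. Small intestinal Fgfr2-low FB were formed by cluster 0, led by *Cxcl2*, *Ereg* and *Areg*, and cluster 1. *Thbs1* was at 507 and 815 CPM in cluster 0 and at 214 and 343 CPM in cluster 1, and the immediate early genes at 45626 and 49011 CPM against 23138 and 29698 CPM. Colonic SMC were formed by cluster 5 (220 and 733 cells) and cluster 8 (25 and 132 cells). *Thbs1* was at 193 and 319 CPM in cluster 8 and at 34.3 and 63.3 CPM in cluster 5, 5.49 and 4.97 times as high. *Tgfb3* was 4.05 and 2.93 times as high in cluster 8, from 8 and 10 UMIs, and *Tgfb2* 1.43 and 5.20 times, from 3 and 15 UMIs. Without cluster 0 of small intestine the log2 fold changes of *Ctgf* and *Postn* in Fgfr2-low FB were 2.99 (adjusted p = 0.0253) and 3.55 (adjusted p = 0.0364).

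Pericytes were not tested, as small intestine replicate 2 held 31 of them. Their *Thbs1* level was 309 and 420 CPM in small intestine and 719 and 717 CPM in colon, and *Postn* was at 275 and 120 CPM against 655 and 537 CPM. The values of small intestine replicate 2 rest on 49949 UMIs in all, where 3 counts equal 60.1 CPM.

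Some genes had profiles close to those of the 9 over 6 classes and 4 libraries (24 points, 3080 genes at a mean of 50 CPM or more). For *Tgfb1* these were *Akr1b8* (Pearson's r = 0.86), *Saraf* (0.85) and *Eif4g3* (0.83), and for *Tgfb2* they were *Cd302* (0.86), *Sptbn1* (0.85) and *Nrp1* (0.85). *Tgfb3* was most like *Uap1* (0.84), and *Tgfbr2* was most like *Ssc5d* (0.95), followed by *Bgn* (0.93) and *Fn1* (0.92). *Thbs1* resembled *Irs2* (0.91), *Hes1* (0.88) and *Hspa5* (0.87), and *Tgfbi* resembled *Mab21l2* (0.85). For *Cyr61* the closest was *Atf5* (0.78), for *Ctgf* it was *Rasa1* (0.75) and for *Postn* it was *Gstm1* (0.77), so that these 3 had no close match. The points share libraries and classes, and these values carry no p.

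Other genes of the pathway were read from lists. Of 28 genes of TGF-β receptors, activation and signalling, 26 or 27 were tested per class, and 3 calls were made, where 0.926% to 1.86% of all genes were called. With the block there were 9, where 4.31% to 8.16% of all genes were called per class. Of these 9, 4 in PDGFRαhi FB included *Acvrl1* and *Smad7*, higher in colon and named after their values were seen. *Ltbp1* and *Ltbp2*, which belong to the family of latent TGF-β binding proteins, were lower in colonic PDGFRαhi FB. *Ltbp1* was at 167 and 216 CPM in small intestine against 30.1 and 35.3 CPM in the colonic libraries (log2 fold change -2.39, SE 0.30, adjusted p = 0.0433), and *Ltbp2* at 51.7 and 107 CPM against 3.33 and 2.32 CPM (-4.69, SE 0.50, adjusted p = 0.0321). *Lrrc32*, whose product GARP displays latent TGF-β on the cell surface, was lower in colonic Fgfr2-low FB, with 138 and 141 CPM against 53.5 and 38.8 CPM (-1.72, SE 0.23, adjusted p = 0.0491). The median log2 fold change of this list was 0.06 in PDGFRαhi FB and -0.33 in Fgfr2-low FB, beside 0.01 and -0.01 over all genes. Among 20 to 22 tested genes of the Hippo pathway and YAP complex, edgeR called none in any of the 5 classes. At an unadjusted p under 0.05 PDGFRαhi FB had 6, Fgfr2-high and Fgfr2-low FB 2 each, CD81+ FB 1 and SMC 0, where 10.3% to 13.2% of all genes passed. With the block 2 of its 22 genes were called in PDGFRαhi FB, 0 in CD81+ FB and 1 in each of the other 3 classes, where 4.31% to 8.16% of all genes were called.

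The list of 22 genes known as YAP targets, which holds *Ctgf*, *Cyr61* and *Tgfb2*, gave 2 calls for CD81+ FB and 2 for Fgfr2-low FB, each higher in colon, 1 in SMC and 0 in PDGFRαhi and Fgfr2-high FB, where 0.926% to 1.86% of all genes were called. With the block there were 6 in PDGFRαhi FB (*F3*, *Igfbp3*, *Ccdc80* and *Nuak2* higher and *Ankrd1* and *Fjx1* lower in colon), 4 in Fgfr2-high FB, 3 in CD81+ FB, 2 in Fgfr2-low FB and 3 in SMC, with the genes of the block named after their values were seen. At an unadjusted p under 0.05, 10 of 22 passed in PDGFRαhi FB (13.1% of all genes) and 8 of 20 in Fgfr2-high FB (11.3%). Beside *Ctgf*, the calls in both FB classes were of *Igfbp3*, which encodes a binding protein of insulin-like growth factors. It was at 10.5 and 10.7 CPM against 84.6 and 60.2 CPM in CD81+ FB (2.63, SE 0.30, adjusted p = 0.0274) and at 182 and 166 CPM against 1259 and 881 CPM in Fgfr2-low FB (2.50, SE 0.29, adjusted p = 0.0359). The median log2 fold change over the list was 0.23 in CD81+ FB, whereas for Fgfr2-low FB it was -0.37, opposite in sign to the called genes. Of the immediate early genes 1 was called, *Socs3*, a feedback inhibitor of cytokine signalling, in Fgfr2-high FB at 602 and 786 CPM against 2957 and 2727 CPM (2.18, SE 0.28, adjusted p = 0.0437). With the block 7 immediate early genes were called in PDGFRαhi FB and 7 in the Fgfr2-high class, all higher in colon, where 4.92% and 3.97% of all genes were called in that direction. Of 12 matricellular genes, 6 to 8 were tested per class. CD81+ FB (0.926% of all genes called) and Fgfr2-low FB (1.78%) had 1 call each. These were *Wisp2* and *Nov*, both of the CCN family, at 14 and 42 UMIs in colon replicate 1, and they are named, like *Nt5e*, the call among YAP targets in SMC, after their values were seen.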

How the data were processed

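UMI counts per gene and barcode were deposited for 4 libraries. The authors had sequenced 10x Genomics 3′ v3 or 5′ libraries (which library had which kit was not given in the sources used here) and aligned them to mm10 with Cell Ranger, 3.0.2 among the submitters' processing notes. Positions are from GENCODE M21. Cells with at least 500 genes, 1000 UMIs and at most 10% mitochondrial UMIs were kept (30743 of 34983 barcodes, after removal of 1473 doublets called with scanpy 1.11.5). They were clustered per intestine in Seurat 5.3.0 (2000 variable genes, 30 components, resolution 0.5), without the 9 genes and lists. Remaining FB clusters of at least 2% of cells were Fgfr2-high if *Fgfr2* was at 50% or more of the highest among them in that intestine. Thresholds for naming clusters were set after the clusters were seen. UMIs summed per library and class were tested with edgeR 4.0.16 (quasi-likelihood, filterByExpr, TMM, Benjamini-Hochberg over all genes), with DESeq2 1.42.0 as an alternative. The scripts were tested on simulated data. Replicates are libraries, so p-values measure the spread between these samples. Same-numbered libraries deviated together (r 0.60 to 0.73), with only 2 pairs. Called genes of the lists were named where each library of the intestine with the higher level had 50 UMIs or more. The 9 genes and the lists were chosen with earlier results of these data known. For a single value, 2 against 2 libraries allow no exact permutation p below 0.3333, so none was run.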

Additional observations from a re-analysis of the deposited data

Results flagged for a closer look

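For 18 combinations of gene and class, the difference between colon and small intestine in PDGFRαhi FB differed from that in another FB class (edgeR quasi-likelihood class by tissue term, library as a block, adjusted p under 0.05). Values are the log2 difference in PDGFRαhi FB minus that in the other class. Against Fgfr2-high FB it was 0.95 for *Tgfb1*, 1.22 for *Tgfb2*, -2.10 for *Tgfb3*, 0.72 for *Tgfbr2* and 1.38 for *Tgfbi*. Against CD81+ FB it was -1.15 for *Tgfb3*, 2.05 for *Tgfbi*, -2.89 for *Ctgf*, -0.94 for *Cyr61*, -0.72 for *Thbs1* and 5.88 for *Postn*. Against Fgfr2-low FB it was 1.01 for *Tgfb1*, 1.83 for *Tgfb2*, -1.65 for *Tgfb3*, 0.61 for *Tgfbr2*, 3.73 for *Tgfbi*, 2.03 for *Thbs1* and 2.43 for *Postn*. Joint clustering, gating or a left-out library ended or moved several of these, as given with the comparison of classes.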

How the results depend on the processing

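Of the 9 genes, 1 was called in PDGFRαhi FB, and 3 were called by the DESeq2 Wald test, without a low-count filter or with the replicate block, 2 with cells gated 1 by 1, and 0 to 2 with a library left out. In Fgfr2-high FB 1 was called, and 0 without the filter or with the replicate block, and 0 to 1 with a library left out. In CD81+ FB 1 was called, 2 by DESeq2, without the filter or with the block, and 0 to 1 with a library left out. In Fgfr2-low FB 2 were called, 4 with the block, 1 after joint clustering or gating, and 0 to 2 with a library left out. In SMC 0 were called, 2 by DESeq2, 3 without the filter, 4 with the block, and 0 to 4 with a library left out. Over all genes, the counts by DESeq2, without the filter and with the replicate block were 586, 571 and 940 for PDGFRαhi FB (164 as reported), 385, 436 and 734 for Fgfr2-high FB (140), 243, 448 and 494 for CD81+ FB (106), 512, 460 and 767 for Fgfr2-low FB (213) and 297, 602 and 591 for SMC (175). Gating gave 104, 33, 87 and 46 in PDGFRαhi, CD81+ and Fgfr2-low FB and SMC, and joint clustering 127 in Fgfr2-low FB. Leaving out 1 library gave 0 to 563, 0 to 476, 0 to 125, 0 to 154 and 71 to 530 in the 5 classes. Over all genes, the class by tissue term passed for 1345 against Fgfr2-high FB, 1575 against CD81+ FB and 1726 against Fgfr2-low FB. By DESeq2 these counts were 572, 814 and 955, and after gating 638, 726 and 778. Of the 9 genes, the term against Fgfr2-high FB passed for 5, for 3 after gating, 4 by DESeq2, 6 without the filter and 7 after joint clustering. It passed for 6 against CD81+ FB (4 to 7 over the alternatives) and 7 against Fgfr2-low FB (6 to 9). No gene kept 1 highest class in all 4 libraries, and 1 did after joint clustering, after gating or without clusters led by *Cxcl1* or *Ereg*, and 0 to 3 with a library left out. None of the 540 alternative values of the 45 fold changes reversed a call, which would need a called value to change sign. With all libraries kept, calls of the 9 genes were gained and lost. DESeq2 gained 6, the fit without the filter gained 7 and lost 1, and the block gained 9 and lost 1. Gating gained 1 and lost 1, and joint clustering lost 1. Of 108 levels, 70 moved by more than 1 SD when CPM left out the 50 genes with most UMIs, 36 with gating and 12 after joint clustering. The causes of these shifts were not tested. The class by tissue term already has library as a block. With 2 libraries per intestine, 1 left-out library leaves a lone sample that is assumed to vary like the others. Levels from 1 UMI or few cells, as in pericytes, cover counting error only.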
